A study of Mus musculus with 36 samples.

Results

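The genes described here are 10 imprinted genes of the mouse: H19, Igf2, Igf2r, Meg3, Rian, Dlk1, Peg3, Peg10, Mest and Grb10. They were chosen by name, as the rows of the 3 deposited tables of normalized read counts that carry these symbols, out of 20964 gene names found in any of the tables. All 10 had a row in the table of embryonic stem cells and embryoid bodies (EBs) and in the organoid table. Of the 10, 8 had a row in the table of pancreatic ductal adenocarcinoma (PDA) cells, and Meg3 and Dlk1 were not analysed there.

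An imprinted gene is read mainly from the copy inherited from the mother or mainly from the copy inherited from the father, because DNA methylation set in the egg or the sperm marks the 2 copies differently at a control region. Many imprinted genes regulate embryonic and placental growth, and the paternally expressed Igf2 and the maternally expressed Igf2r and Grb10 act on the same insulin-like growth factor (IGF) pathway. Imprinted genes lie in clusters, so that H19 neighbours Igf2 on chromosome 7, and Dlk1, Meg3 and Rian are neighbours on chromosome 12. The counts are summed over both copies, so nothing below says which copy was read.

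The 36 samples of the series profile the transcription factor RREB1 and the TGFβ pathway in 3 culture systems; 20 of them, the RNA-seq libraries, were used, while 15 from ChIP-seq and 1 from ATAC-seq were not analysed here. E14 embryonic stem cells labelled wild type (WT) or knockout (KO) for Rreb1 were sampled at day 0 and day 4 of EB culture. KSIC_806 PDA cells, with the added mark S4 in their labels and either genotype label, received SB505124, a TGFβ receptor kinase inhibitor, at 2.5 µM for 6 h, or TGFβ at 100 pM for 1.5 h. EB and PDA groups had 2 libraries each. Organoids of pancreatic epithelial cells (CIY_organoid) received the same agents for the same times, with or without doxycycline (dox, 1 µg/mL at plating), with 1 library per condition. What S4 stands for and what dox switches on are not given in the sources used here. SB505124 was given for longer than TGFβ, so agent and time differ at once in each TGFβ comparison. Whether replicates are separate cultures is not stated, and p-values then reflect only the spread between these libraries, which may be technical. Whether a genotype label covers more than 1 line or clone is not stated either, and an effect of the label cannot be told apart from any other way in which the lines differ.

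Depth was 19.9 to 29.1 M reads per EB library, 20.4 to 44.5 M per PDA library and 23.9 to 35.8 M per organoid library. At this depth the 3 reads taken as the limit of detection correspond to a value of 2.54 to 3.63 in EB, 2.46 to 6.03 in PDA and 2.23 to 3.4 in organoid libraries. Rreb1 was read as a check on the labels, and its transcript was present in every library labelled KO. It measured 2642 and 2830 in KO day 0 cells against 1085 and 1019 in WT, and 1920 and 1512 in KO day 4 cells against 1482 and 1586 in WT (0.15 ± 0.10 on the log2 scale, limma adjusted p = 0.198). In PDA cells under SB505124 it measured 2164 and 2195 in KO against 1458 and 1501 in WT. Under TGFβ it was lower in KO, at 2886 and 2560 against 4293 and 4212 (-0.65 ± 0.08, limma adjusted p = 0.000364). The counts therefore do not separate the labels by loss of transcript, and KO below stands for the label alone. Of the markers of the labelled sources, 7 of 7 pluripotency genes had a value of at least 10 in every EB library, and 7 of 7 ductal epithelium genes in every PDA and organoid library. The ductal count was also 7 of 7 in WT day 4 EBs and 6 of 7 in the other EB groups, so it does not tell the sources apart.

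A start region of each of 5 genes is shown because Igf2, Peg3, Mest and Dlk1 rose together in WT cells and were lower in KO cells at day 4, while Meg3, the neighbour of Dlk1, did not follow them. Each line is the 250 bases before an annotated start from RefSeq (build GRCm38.p6), 5′ to 3′ on the strand of the gene, with the CpG dinucleotides, where the methyl marks of imprinting are placed, in capitals. Where a gene has more than 1 annotated start, a window with its highest CpG count was printed, so these counts are a description of a chosen window. The windows lie at chr7:142658805-142659054 (Igf2, minus strand), chr7:6730420-6730669 (Peg3, minus strand), chr6:30737800-30738049 (Mest, plus strand), chr12:109452573-109452822 (Dlk1, plus strand) and chr12:109540746-109540995 (Meg3, plus strand). Those of Igf2, Mest and Dlk1 lie inside the annotated span of the gene, before an internal start. That of Peg3 also lies before an internal start, but only partly inside the span, which ends at chr7:6730462.
Igf2: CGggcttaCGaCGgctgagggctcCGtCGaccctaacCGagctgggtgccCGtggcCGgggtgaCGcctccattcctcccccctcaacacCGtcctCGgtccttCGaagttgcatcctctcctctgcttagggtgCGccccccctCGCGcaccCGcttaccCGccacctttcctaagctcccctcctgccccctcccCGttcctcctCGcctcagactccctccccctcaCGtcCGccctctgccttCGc
Peg3: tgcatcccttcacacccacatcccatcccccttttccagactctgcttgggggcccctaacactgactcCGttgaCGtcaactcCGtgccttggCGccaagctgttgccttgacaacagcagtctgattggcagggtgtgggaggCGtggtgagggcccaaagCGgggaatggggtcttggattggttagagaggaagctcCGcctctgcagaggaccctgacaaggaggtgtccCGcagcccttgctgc
Mest: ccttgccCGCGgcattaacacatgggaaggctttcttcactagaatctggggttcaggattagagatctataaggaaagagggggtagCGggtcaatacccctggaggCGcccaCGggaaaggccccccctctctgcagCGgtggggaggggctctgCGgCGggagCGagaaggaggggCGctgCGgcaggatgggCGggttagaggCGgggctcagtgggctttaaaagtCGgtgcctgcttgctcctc
Dlk1: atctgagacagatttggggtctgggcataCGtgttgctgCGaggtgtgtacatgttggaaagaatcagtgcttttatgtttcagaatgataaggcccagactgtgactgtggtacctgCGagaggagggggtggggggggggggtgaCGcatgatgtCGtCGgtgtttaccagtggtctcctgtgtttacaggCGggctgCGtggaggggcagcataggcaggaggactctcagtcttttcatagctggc
Meg3: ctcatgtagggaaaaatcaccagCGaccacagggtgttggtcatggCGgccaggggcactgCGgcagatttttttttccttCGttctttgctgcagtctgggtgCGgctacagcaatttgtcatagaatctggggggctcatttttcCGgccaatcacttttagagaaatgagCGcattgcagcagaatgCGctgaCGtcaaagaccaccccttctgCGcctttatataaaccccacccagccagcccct
The printed Igf2 window holds 22 CpGs, the Mest window 14, the Meg3 window 10, and the Peg3 and Dlk1 windows 8 each, where the median of 32851 such windows over 27025 genes is 6. The windows before the other annotated starts hold 6, 10 and 1 CpGs for Igf2, 7 and 14 for Mest, and 0 for Meg3. Windows with at least as many CpGs as the printed Igf2 window made up 14.8% of all windows. The letters TGCCGC, which the imprint-protecting zinc finger protein ZFP57 binds when methylated, were searched on both strands. They occurred in the printed Mest window (2 matches) and the printed Meg3 window (1 match), and in none of the other 3 printed, against 8.68% of all windows with a match. The Mest window with 7 CpGs, the second Meg3 window and the other Igf2 windows hold no match, while the second Mest window with 14 CpGs, which overlaps the printed one, holds the same number. Of the 10 genes, 8 had a window in the table used, and methylation was not measured.

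Igf2 and H19 had the widest fold range between the lowest and the highest EB library among the 10 genes. Igf2 (chr7:142650768-142666816) encodes the growth factor IGF2 and is paternally expressed. In WT cells it measured 170 and 180 at day 0 and 16025 and 23968 at day 4, and in KO cells 209 and 206 at day 0 and 81.5 and 56.2 at day 4. The WT day 4 libraries stand far above all others and the KO day 4 libraries below all others, while the day 0 libraries of both labels lie close together. The log2 fold change from day 0 to day 4, on log2(value + 1), was 6.80 ± 0.17 (SE, limma adjusted p = 1.69e-12) in WT, the rank 29 among 15227 tested genes ordered by increase. In KO it was -1.60 ± 0.17 (limma adjusted p = 2.55e-06), and the difference between these changes was -8.40 ± 0.25 (limma adjusted p = 2.05e-11). KO was below WT at day 4 (-8.16 ± 0.17, limma adjusted p = 3.52e-13), the rank 14 among all decreases. At day 0 the difference missed the threshold, an adjusted p under 0.05, (0.24 ± 0.17, limma adjusted p = 0.234). In these bulk libraries fewer cells of a type and less RNA per cell cannot be told apart.

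H19 (chr7:142575530-142578146) is the maternally expressed long non-coding RNA gene beside Igf2, and the 2 genes share enhancers. It measured 55.6 and 72.7 in WT day 0 cells, 3967 and 3139 in WT day 4 cells, 24.6 and 22.9 in KO day 0 cells, and 179 and 120 in KO day 4 cells. H19 was higher at day 4 than at day 0 under both labels, with no overlap between any of the 4 groups. The log2 fold change was 5.77 ± 0.20 in WT (limma adjusted p = 1.46e-11) and 2.58 ± 0.20 in KO (limma adjusted p = 6.98e-08), a difference of -3.20 ± 0.28 (limma adjusted p = 4.64e-07). KO was below WT at day 0 (-1.38 ± 0.20, limma adjusted p = 2.43e-05) and at day 4 (-4.58 ± 0.20, limma adjusted p = 2.16e-10). Unlike Igf2, H19 thus rose in KO cells, and the ratio of H19 to Igf2 values, which is not scaled for transcript length, moved in opposite directions under the 2 labels. It was 0.327 and 0.403 in WT day 0 cells and 0.248 and 0.131 in WT day 4 cells, but 0.118 and 0.112 in KO day 0 cells and 2.19 and 2.14 in KO day 4 cells. The KO day 4 libraries are the only EB libraries in which the H19 value exceeded the Igf2 value.

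**Figure D1:**
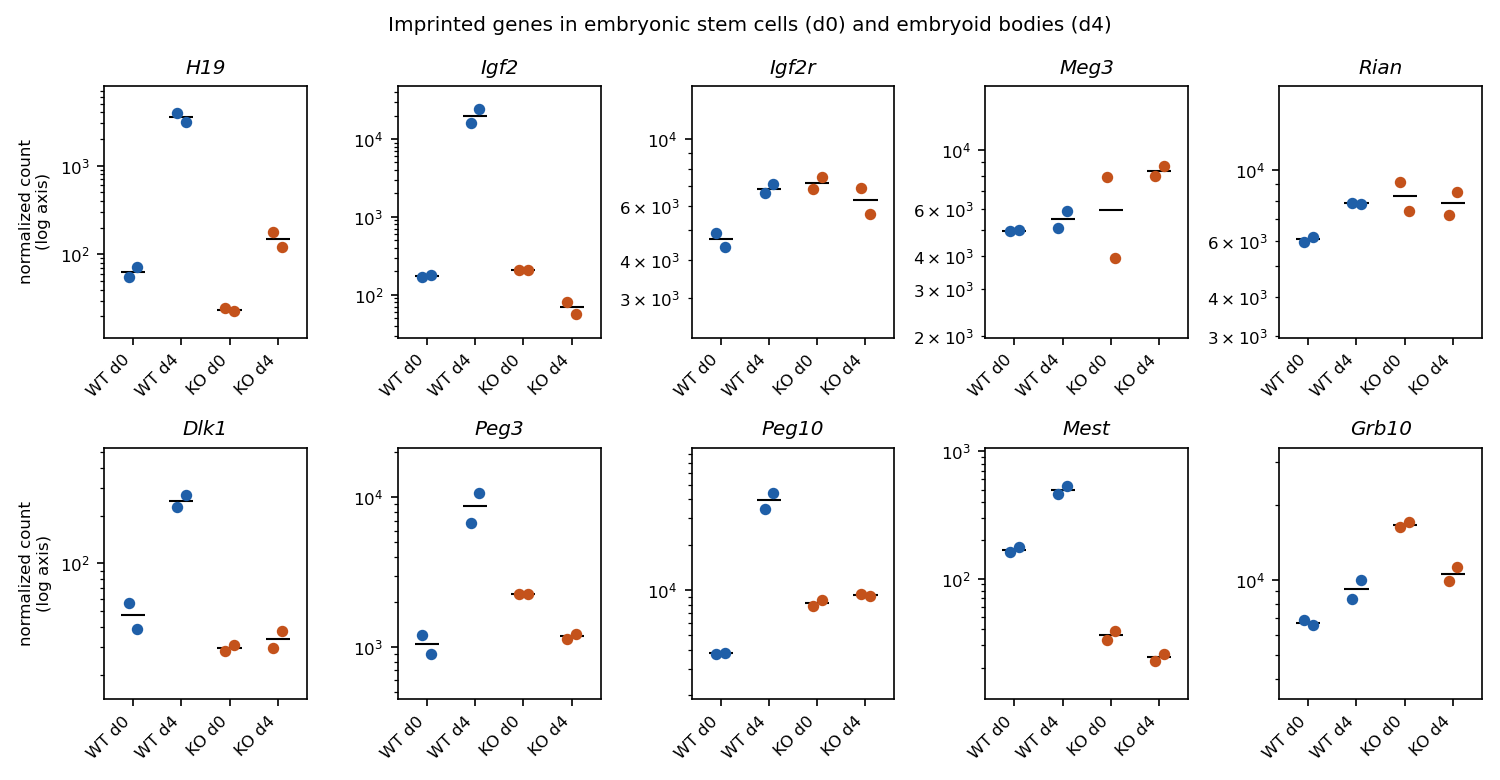
Normalized read counts (log axis, own range per gene) of the 10 imprinted genes in the 8 EB libraries; points are libraries, bars the mean of 2, blue WT and orange the libraries labelled KO, at day 0 (d0) and day 4 (d4). Igf2 rises from 170 and 180 to 16025 and 23968 in WT and falls to 81.5 and 56.2 in KO.

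Igf2r and Grb10, both maternally expressed in most tissues, act against IGF signalling. Igf2r (chr17:12682406-12769706) encodes the receptor that carries IGF2 to the lysosome for breakdown. It measured 4919 and 4421 in WT day 0 cells, 6643 and 7094 in WT day 4 cells, 6867 and 7490 in KO day 0 cells, and 6920 and 5661 in KO day 4 cells. The WT day 0 libraries are the lowest, and the other 3 groups overlap. Igf2r rose in WT (0.56 ± 0.09, limma adjusted p = 9.40e-05) and was higher in KO than in WT day 0 cells (0.62 ± 0.09, limma adjusted p = 3.07e-05), with no called change in KO (-0.20 ± 0.09, limma adjusted p = 0.0754). Without KO day 4 replicate 1 the fall in KO was called (-0.34, limma adjusted p = 0.00415). Its difference between labels at day 4 was -0.13 ± 0.09 (limma adjusted p = 0.226) and passed the threshold under quantile normalization (-0.27, limma adjusted p = 0.0187), with libraries rescaled to the same total (-0.23, limma adjusted p = 0.0374) and without KO day 4 replicate 1 (-0.28, limma adjusted p = 0.0136).

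Grb10 (chr11:11930499-12037428) encodes an adaptor protein that damps insulin and IGF receptor signalling. It measured 6875 and 6607 in WT day 0 cells, 8405 and 10003 in WT day 4 cells, 16377 and 17140 in KO day 0 cells, and 9900 and 11322 in KO day 4 cells. The KO day 0 libraries are the highest, the WT day 0 libraries the lowest, and the day 4 groups overlap. Grb10 rose in WT (0.44 ± 0.09, limma adjusted p = 0.000454) and fell in KO (-0.66 ± 0.09, limma adjusted p = 1.49e-05), and it was higher in KO day 0 cells (1.31 ± 0.09, limma adjusted p = 1.21e-08). The day 4 difference of 0.21 ± 0.09 missed the threshold (limma adjusted p = 0.0546) and passed it with the replicate number as a block (limma adjusted p = 0.0323), without WT day 4 replicate 2 (0.33, limma adjusted p = 0.0104) and without KO day 4 replicate 1 (0.30, limma adjusted p = 0.0141).

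In the chromosome 12 cluster the paternally expressed gene and its maternally expressed neighbours gave different patterns. Dlk1 (chr12:109452485-109463336) encodes a transmembrane protein related to the NOTCH ligands. It measured 56.6 and 38.8 in WT day 0 cells and 225 and 268 in WT day 4 cells, against 28.0 and 30.6 in KO day 0 cells and 29.4 and 37.5 in KO day 4 cells. Only the WT day 4 libraries stand apart upwards, and the KO groups overlap. Dlk1 rose in WT (2.36 ± 0.24, limma adjusted p = 9.86e-07) and its change in KO was 0.18 ± 0.24 (limma adjusted p = 0.546). The difference of the changes was -2.19 ± 0.34 (limma adjusted p = 9.03e-05). KO was lower at day 4 (-2.85 ± 0.24, limma adjusted p = 1.86e-07). At day 0 Dlk1 was also lower in KO (-0.66 ± 0.24, limma adjusted p = 0.0248), a call lost under quantile normalization (-0.34, limma adjusted p = 0.240), under DESeq2, without WT day 0 replicate 1 (-0.39, limma adjusted p = 0.248) and without either KO day 0 library.

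Meg3 (chr12:109540996-109571729), a maternally expressed long non-coding RNA gene, measured 4934 and 5004 in WT day 0 cells, 5096 and 5868 in WT day 4 cells, 7895 and 3935 in KO day 0 cells, and 7947 and 8672 in KO day 4 cells. The KO day 0 libraries lie on either side of all WT libraries, and the KO day 4 libraries are above them. Meg3 was the 1 gene of the 10 with no called change in WT (0.14 ± 0.20, limma adjusted p = 0.569). Its rise in KO (0.57 ± 0.20, limma adjusted p = 0.0246) lost its call under 5 of 15 alternatives. It was 0.07 (limma adjusted p = 0.561) without KO day 0 replicate 2, 0.64 and 0.51 (limma adjusted p = 0.0554 and 0.109) without KO day 4 replicates 1 and 2, 0.57 (limma adjusted p = 0.0745) without the filter and 0.49 (adjusted p = 0.238) by DESeq2. The higher value in KO day 4 cells (0.60 ± 0.20, limma adjusted p = 0.0206) lost its call under 6 of 15 alternatives, among them DESeq2 (0.60, adjusted p = 0.151). At day 0 the labels differed by 0.17 ± 0.20 (limma adjusted p = 0.486), which was 0.67 (limma adjusted p = 7.49e-05) without KO day 0 replicate 2 and -0.34 (limma adjusted p = 0.00952) without replicate 1. The difference between the day 4 changes was 0.44 ± 0.29 (limma adjusted p = 0.211), and 0.94 (limma adjusted p = 5.61e-05) without KO day 0 replicate 1.

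Rian (chr12:109603945-109661716), a maternally expressed gene whose introns carry small nucleolar RNAs, measured 5939 and 6168 in WT day 0 cells, 7867 and 7817 in WT day 4 cells, 9169 and 7432 in KO day 0 cells, and 7209 and 8512 in KO day 4 cells. The WT day 0 libraries are the lowest and the other 3 groups overlap. Rian rose in WT (0.37 ± 0.09, limma adjusted p = 0.00327) and was higher in KO day 0 cells (0.45 ± 0.09, limma adjusted p = 0.000779), with changes of -0.08 ± 0.09 in KO (limma adjusted p = 0.511) and a difference between labels of -0.00 ± 0.09 at day 4 (limma adjusted p = 0.991). The difference between its day 4 changes was -0.45 ± 0.13 (limma adjusted p = 0.0108), which without KO day 0 replicate 1 was -0.30 (limma adjusted p = 0.0673). The ratio of Rian to Meg3 values ran from 1.20 to 1.54 in the WT libraries, was 1.16 and 1.89 in KO day 0 cells and 0.907 and 0.982 in KO day 4 cells. Rtl1 overlaps the span of both genes on the other strand, and the library kit does not mark strand, so their reads cannot be told apart where they overlap.

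**Figure D2:**
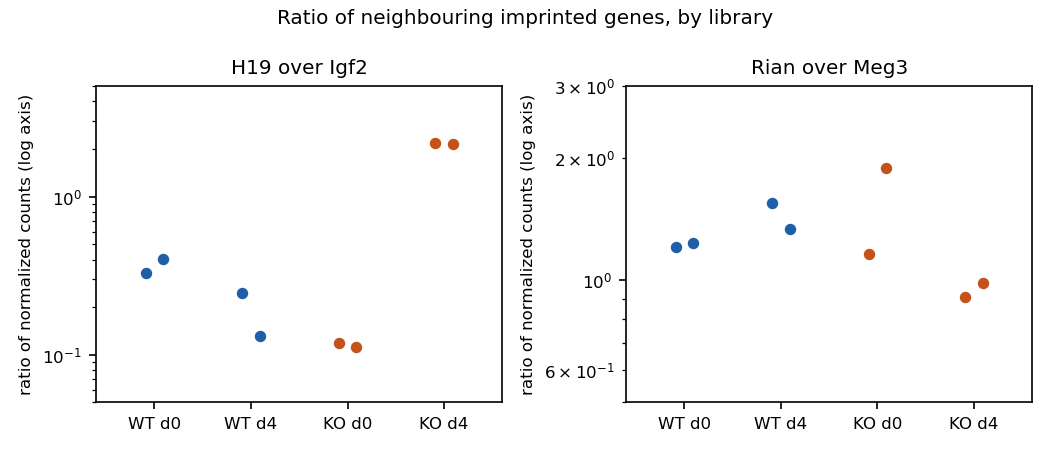
Ratio of normalized counts (log axis, not scaled for transcript length) of H19 to Igf2 and of Rian to Meg3 in each EB library; each point is 1 library, blue WT and orange labelled KO. The H19 to Igf2 ratio is 2.19 and 2.14 in KO day 4 cells and at most 0.403 in the other libraries.

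The paternally expressed genes Peg3, Peg10 and Mest all rose in WT. Peg3 (chr7:6703892-6730462), a zinc finger protein gene, measured 1206 and 895 in WT day 0 cells, 6776 and 10767 in WT day 4 cells, 2272 and 2251 in KO day 0 cells, and 1136 and 1218 in KO day 4 cells. It was highest in WT day 4 cells, next in KO day 0 cells, and the remaining 2 groups overlap. Peg3 rose in WT (3.04 ± 0.16, limma adjusted p = 1.32e-09) and fell in KO (-0.94 ± 0.16, limma adjusted p = 0.000186), a difference of -3.98 ± 0.23 (limma adjusted p = 8.40e-09). KO was above WT at day 0 (1.12 ± 0.16, limma adjusted p = 2.96e-05) and below it at day 4 (-2.86 ± 0.16, limma adjusted p = 3.13e-09).

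Peg10 (chr6:4747306-4760517), a retrotransposon-derived gene needed for the placenta, measured 3759 and 3828 in WT day 0 cells, 34717 and 44246 in WT day 4 cells, 7806 and 8578 in KO day 0 cells, and 9409 and 9083 in KO day 4 cells. None of the 4 groups overlap, and KO at day 0 was already above WT at day 0. Peg10 rose in WT (3.37 ± 0.09, limma adjusted p = 2.47e-12), while its change in KO was 0.18 ± 0.09 (limma adjusted p = 0.120), a difference of -3.19 ± 0.13 (limma adjusted p = 3.41e-10). KO was above WT at day 0 (1.11 ± 0.09, limma adjusted p = 1.37e-07) and below it at day 4 (-2.08 ± 0.09, limma adjusted p = 3.00e-10). The KO change passed the threshold under quantile normalization (0.28, limma adjusted p = 0.0395) and without either WT day 4 library.

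Mest (chr6:30733506-30748466), which encodes a protein with a hydrolase fold, measured 163 and 176 in WT day 0 cells, 461 and 534 in WT day 4 cells, 33.1 and 39.2 in KO day 0 cells, and 22.6 and 25.6 in KO day 4 cells. Both KO groups lie below both WT groups. Mest rose in WT (1.55 ± 0.18, limma adjusted p = 4.52e-06), and the difference between the changes was -2.11 ± 0.26 (limma adjusted p = 1.09e-05). KO was below WT at day 0 (-2.20 ± 0.18, limma adjusted p = 1.16e-07) and at day 4 (-4.31 ± 0.18, limma adjusted p = 2.03e-10). Its fall in KO (-0.56 ± 0.18, limma adjusted p = 0.0162) lost its call under edgeR (-0.55, adjusted p = 0.0733), under DESeq2 (-0.57, adjusted p = 0.120), without KO day 0 replicate 2 (-0.44, limma adjusted p = 0.105) and without KO day 4 replicate 1 (-0.48, limma adjusted p = 0.0702).

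Counted over the set, 9 of 10 genes rose and none fell from day 0 to day 4 in WT, where 32.3% of all tested genes rose and 30.8% fell by limma. In KO, 2 rose and 4 fell, against 29.1% and 30.9% of all genes. The change was smaller or more negative in KO than in WT for 9 of 10 genes and larger for none, where 28.6% of all genes had a called difference below zero and 27.1% above. KO was above WT at day 0 for 5 genes and below for 3, against 33.9% and 33.3% of all genes. At day 4 KO was above for 1 and below for 6, against 27.8% and 28.4%. The median log2 change of the 10 genes was 1.96 in WT and -0.14 in KO, and the median difference was -2.15, where the median over all genes was -0.02 in KO and -0.01 for the difference. These comparisons share libraries with each other, and imprinted neighbours share a locus. The 10 genes, and the gene lists below, were chosen with earlier results of these data known. Their counts beside the shares of all genes are therefore a description and not a test.

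**Figure D3:**
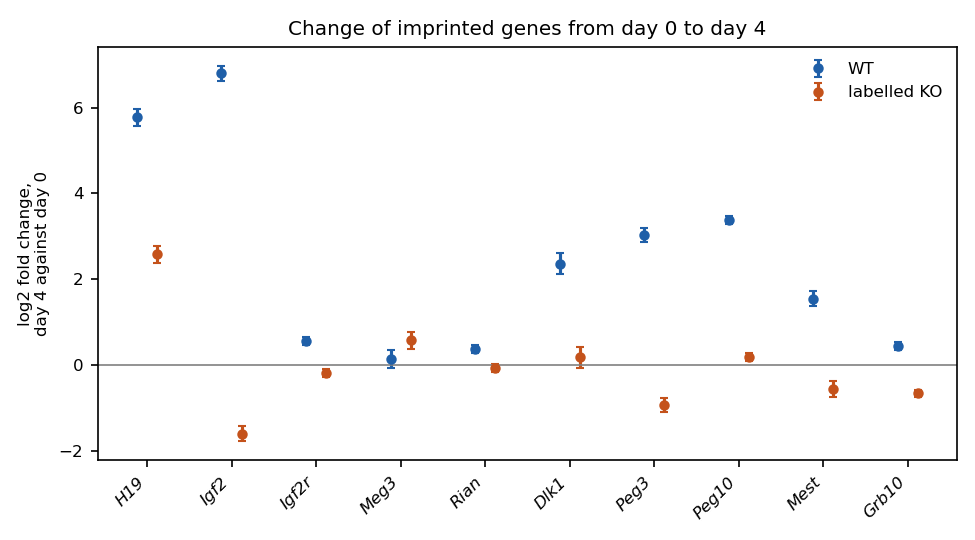
Log2 fold change (log2(value + 1) scale) from day 0 to day 4 of each imprinted gene, with the SE from limma over 8 libraries in 4 groups of 2; blue WT, orange labelled KO. All genes but Meg3 lie higher in WT, from Igf2 with 6.80 against -1.60 to Rian with 0.37 against -0.08.

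Some marker lists of other cell types were highest in WT day 4 cells, and others were not. The summed level of 7 primitive streak and mesoderm markers was 207 to 208 in WT day 0 cells, 9948 to 17258 in WT day 4 cells, 319 to 336 in KO day 0 cells and 767 to 769 in KO day 4 cells. The 8 primitive and visceral endoderm markers summed to 408 to 443, 9663 to 10638, 344 to 354 and 231 to 245 in the same order, with Afp and Ttr at 0 in both WT day 0 libraries. Both lists were highest in WT day 4 cells, with 7 of 7 and 8 of 8 markers at 10 or more in both libraries, as Igf2, H19, Dlk1, Peg3, Peg10 and Mest were. Fibroblast or feeder markers summed to 2581 to 2965 in WT day 4 cells and to 499 to 808 in the other groups. The 3 endothelial markers with a row had their lowest sum in WT day 4 cells, at 1205 to 1342 against 3224 to 6052 in the other groups. By marker, 3 of 3 were at 10 or more in WT day 4 cells and 2 of 3 in each other group. Cdh5 was at 0 in both KO day 4 libraries. The leukocyte sum was highest in KO day 4 cells (1009 to 1304, against 601 to 802 in WT day 4 cells). Of its 5 markers, 2 were at 10 or more in KO day 4 cells, with Ptprc at 0, and 3 in WT day 4 cells. The trophoblast sum was highest in KO day 0 cells (2932 to 3239, against 2229 to 2246 in WT day 4 cells). Of its 7 markers, 3 were at 10 or more in KO day 0 cells and 4 in WT day 4 cells. Elf5, Psg17 and Prl3d1 were at 0 in KO day 0 cells, and Psg17 in WT day 4 cells. The 7 pluripotency markers summed to 42605 to 43478 in WT day 4 cells and to 80426 to 82583 in KO day 4 cells, against 128593 to 135516 at day 0. The part of these markers in the results was not tested.

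Other imprinted genes moved in both directions. Of 15 tested genes listed as maternally expressed, 11 rose and 3 fell in WT (median 0.67) and 6 rose and 2 fell in KO (median 0.23), against 32.3% and 30.8% of all genes in WT and 29.1% and 30.9% in KO. Asb4, a gene of the Peg10 cluster, went from 2.98 and 6.06 to between 632 and 999 in WT (7.23 ± 0.61, limma adjusted p = 1.42e-07), while no KO library was above 3.94. Zim1, a neighbour of Peg3, rose in WT (3.68 ± 0.31, limma adjusted p = 1.72e-07) from 9.69 to 12.9 up to 130 to 186 and stayed within 12.4 to 17.8 in KO. Calcr, the calcitonin receptor gene, rose under both labels (2.63 ± 0.26 in WT and 3.68 ± 0.26 in KO). Ascl2 rose in KO (2.71 ± 0.20, limma adjusted p = 3.73e-08), and its change was larger in KO than in WT (difference 2.07 ± 0.28, limma adjusted p = 2.42e-05). Phlda2 and Cdkn1c, which both restrain growth, were lower in KO day 0 cells (-1.55 ± 0.10 and -1.55 ± 0.13) and at day 4 (-1.92 ± 0.10 and -1.50 ± 0.13). Against WT, 4 of the 15 were higher and 8 lower in KO day 0 cells (33.9% and 33.3% of all genes), and 2 were higher and 7 lower at day 4 (27.8% and 28.4%). The day 4 change was higher in KO than in WT for 5 of the 15 and lower for 5 (27.1% and 28.6% of all genes).

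Of 19 tested genes listed as paternally expressed, 9 rose and 3 fell in WT (median 0.58) and 7 rose and 7 fell in KO (median 0.03), beside 32.3% and 30.8% of all genes in WT and 29.1% and 30.9% in KO. Magel2, of the Prader-Willi region, rose under both labels (3.08 ± 0.22 in WT and 2.82 ± 0.22 in KO). Sgce, which adjoins Peg10, rose in WT (1.74 ± 0.14, limma adjusted p = 1.17e-07) and its change was smaller in KO (difference -1.08 ± 0.20, limma adjusted p = 0.000473). At day 0 Sgce was already higher in KO than in WT (1.35 ± 0.14, limma adjusted p = 1.36e-06). Zdbf2 measured 1084 to 1141 in WT day 0 cells and 11599 to 13628 in KO day 0 cells, and 1814 to 2403 against 5826 to 6340 at day 4. It was higher in KO on both days (3.50 ± 0.11, limma adjusted p = 1.44e-11, and 1.54 ± 0.11, limma adjusted p = 3.18e-08). Nnat was also higher in KO on both days (1.55 ± 0.17 and 2.10 ± 0.17). Against WT, 9 of the 19 were higher and 3 lower in KO day 0 cells (33.9% and 33.3% of all genes), and 7 were higher and 7 lower at day 4 (27.8% and 28.4%). The day 4 change was higher in KO than in WT for 1 of the 19 and lower for 6 (27.1% and 28.6% of all genes).

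Among 21 genes of imprint maintenance and DNA methylation, a list that also holds Tet1, Tet2 and Tet3, whose enzymes oxidise methylated cytosine, 7 rose and 9 fell in WT (median -0.05) and 4 rose and 12 fell in KO (median -0.29). The shares of all genes were 32.3% and 30.8% in WT and 29.1% and 30.9% in KO. Tet1 fell in WT (-1.55 ± 0.10) and Tet3 rose (1.54 ± 0.10). The gene of the de novo DNA methyltransferase Dnmt3b rose under both labels (1.61 ± 0.09 in WT and 2.52 ± 0.09 in KO), and Zfp57 fell under both (-2.15 ± 0.12 and -2.42 ± 0.12). Dppa3, whose protein protects methylation in the early embryo, measured 246 to 256 in WT and 39.2 to 39.9 in KO day 0 cells, and 382 to 397 against 14.7 to 16.8 at day 4. It was lower in KO on both days (-2.64 ± 0.17 and -4.55 ± 0.17, limma adjusted p = 8.89e-11 at day 4). Dnmt3l, the cofactor of the de novo enzymes, was higher in KO on both days (1.21 ± 0.07 and 1.72 ± 0.07). Of the 21, 11 were higher and 7 lower in KO day 0 cells (33.9% and 33.3% of all genes), and 7 were higher and 7 lower at day 4 (27.8% and 28.4%).

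Of 17 tested genes of the IGF pathway, 14 rose and 2 fell in WT (median 1.02), and 10 rose and 6 fell in KO (median 0.22), where 32.3% of all genes rose and 30.8% fell in WT and 29.1% and 30.9% in KO. Irs2, an adaptor downstream of the insulin and IGF receptors, rose in WT (2.22 ± 0.12, limma adjusted p = 1.27e-09) with a difference of -2.76 ± 0.17 between the changes. The binding protein gene Igfbp5 rose in WT (3.33 ± 0.21, limma adjusted p = 6.57e-09). Igfbp2, another binding protein gene, measured 13981 to 14701 in WT and 1887 to 2191 in KO day 0 cells and rose in KO (2.64 ± 0.13, limma adjusted p = 6.02e-10). At day 4, 1 of the 17 was higher and 11 lower in KO (27.8% and 28.4% of all genes), with Igfbp3 (-2.06 ± 0.10) and Igfbp4 (-2.65 ± 0.18) among the lower. At day 0, 6 were higher and 8 lower (33.9% and 33.3%).

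Of 13 NOTCH pathway genes, which bear on Dlk1 as a relative of the NOTCH ligands, 5 rose and 2 fell in WT (median 0.11) and 7 rose and 3 fell in KO (median 0.26), against 32.3% and 30.8% of all genes in WT and 29.1% and 30.9% in KO. Hey1, a target gene of the pathway, rose under both labels (2.14 ± 0.16 in WT and 1.87 ± 0.16 in KO). The receptor gene Notch2 rose in WT (1.51 ± 0.11, limma adjusted p = 3.05e-08). At day 4, 3 of the 13 were higher and 8 lower in KO than in WT (27.8% and 28.4% of all genes), among the lower the ligand genes Jag1 (-1.17 ± 0.09) and Dll3 (-2.08 ± 0.18).

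The genes most alike in their values over the 8 EB libraries were sought among 12279 genes with a mean of at least 50, by Pearson's r of log2(value + 1); the points share 4 groups, so r is a description. Igf2 was closest to Lgals1 (r = 0.995), Col4a2 (0.994) and Apcdd1 (0.993), of which Col4a2 encodes a basement membrane collagen chain. H19 was closest to Tram1 (0.998), Tmc4 (0.996) and Efna1 (0.995). Dlk1 was closest to Reln (0.994), Tmem119 (0.994) and the mesenchymal receptor gene Pdgfra (0.993), and Peg3 to the cadherin genes Cdh11 (0.993) and Cdh2 (0.993) and to Gata4 (0.991). Peg10 was closest to Vopp1 (0.995), Arhgef5 (0.994) and Soga1 (0.993), and Grb10 to Zhx1 (0.999), Slc25a44 (0.993) and Zfp935 (0.993). Mest was closest to 3 predicted genes, Gm2016 (0.997), Gm20767 (0.995) and Gm13078 (0.995). Igf2r was closest to Rock2 (0.992), Sowahc (0.989) and Usp14 (0.985). For Meg3 the highest value was lower, with Ttc14 (0.967), and no gene among the closest 3 of any of the 10 was another of them.

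In PDA cells 4 of the 10 genes, Igf2r, Peg3, Mest and Grb10, passed the filter (2 or more of the 8 libraries with a value of 10 or more). H19 had no read in 6 libraries and 3 and 5 reads in the KO TGFβ libraries, and Igf2 had 1 read in 1 of the 8 libraries. Peg10 had 1 read in 1 library, and Rian had 9 reads over 6 libraries. All of these values are at or near the detection limit, so no comparison is made for them.

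Peg3 measured 3972 and 3570 in WT under SB505124, 6616 and 6735 in WT under TGFβ, 17670 and 17075 in KO under SB505124, and 10052 and 10608 in KO under TGFβ. No groups overlap, and the order of WT and KO is the same under both agents. Peg3 rose under TGFβ in WT (0.83 ± 0.07, limma adjusted p = 0.000139) and fell in KO (-0.75 ± 0.07, limma adjusted p = 0.000198), a difference of -1.58 ± 0.10 (limma adjusted p = 0.000363). KO was above WT under SB505124 (2.21 ± 0.07, limma adjusted p = 7.56e-07) and under TGFβ (0.63 ± 0.07, limma adjusted p = 0.000309). These 5 calls for Peg3 held under every alternative run.

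Igf2r measured 2333 and 2483 in WT under SB505124, 3088 and 3082 in WT under TGFβ, 2532 and 2526 in KO under SB505124, and 2013 and 2121 in KO under TGFβ. WT under TGFβ is highest and KO under TGFβ lowest, with no overlap between groups. Igf2r rose in WT (0.36 ± 0.07, limma adjusted p = 0.00520) and fell in KO (-0.29 ± 0.07, limma adjusted p = 0.0115), a difference of -0.65 ± 0.09 (limma adjusted p = 0.00444), and KO was below WT under TGFβ (-0.58 ± 0.07, limma adjusted p = 0.000337) but not detectably under SB505124 (0.07 ± 0.07, limma adjusted p = 0.391). The rise in WT lost its call without either WT TGFβ library (0.36 each, limma adjusted p = 0.0543 and 0.0528). The fall in KO lost its call when libraries were rescaled to the same total (-0.18, limma adjusted p = 0.0637), without either KO SB505124 library and without KO TGFβ replicate 1 (-0.25, limma adjusted p = 0.0526).

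Grb10 measured 14.7 and 18.2 in WT under SB505124, 41.0 and 44.4 in WT under TGFβ, 36.2 and 28.4 in KO under SB505124, and 71.6 and 86.4 in KO under TGFβ. TGFβ libraries are above SB505124 libraries under each label, with no overlap between groups. Grb10 rose in WT (1.33 ± 0.22, limma adjusted p = 0.00316) and in KO (1.27 ± 0.22, limma adjusted p = 0.00341), with a difference of -0.06 ± 0.31 (limma adjusted p = 0.904). KO was above WT under SB505124 (0.93 ± 0.22, limma adjusted p = 0.00850) and under TGFβ (0.87 ± 0.22, limma adjusted p = 0.0162). The call under SB505124 was lost under DESeq2 (0.95, adjusted p = 0.0855) and without KO SB505124 replicate 1 (0.76, limma adjusted p = 0.0554), and that under TGFβ under DESeq2 (0.89, adjusted p = 0.0675) and without any 1 of WT TGFβ replicates 1 and 2 and KO TGFβ replicate 2.

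Mest measured 415 and 324 in WT under SB505124, 232 and 245 in WT under TGFβ, 280 and 254 in KO under SB505124, and 256 and 259 in KO under TGFβ. The WT SB505124 libraries are the highest, and the KO groups overlap. Mest fell in WT (-0.62 ± 0.14, limma adjusted p = 0.0108), was lower in KO than in WT under SB505124 (-0.46 ± 0.14, limma adjusted p = 0.0231), and changed by -0.05 ± 0.14 in KO (limma adjusted p = 0.813). The fall in WT lost its call without either WT TGFβ library (-0.58 and -0.66, limma adjusted p = 0.0826 and 0.0576), and the lower value in KO without WT SB505124 replicate 1 (-0.28, limma adjusted p = 0.106) or either KO SB505124 library. The difference between its changes was 0.57 ± 0.19 (limma adjusted p = 0.0734), and it passed the threshold with libraries rescaled to the same total (0.64, limma adjusted p = 0.0458) and without WT SB505124 replicate 2 (0.75, limma adjusted p = 0.0168). Between labels under TGFβ the difference was 0.11 ± 0.14 (limma adjusted p = 0.554).

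**Figure D4:**
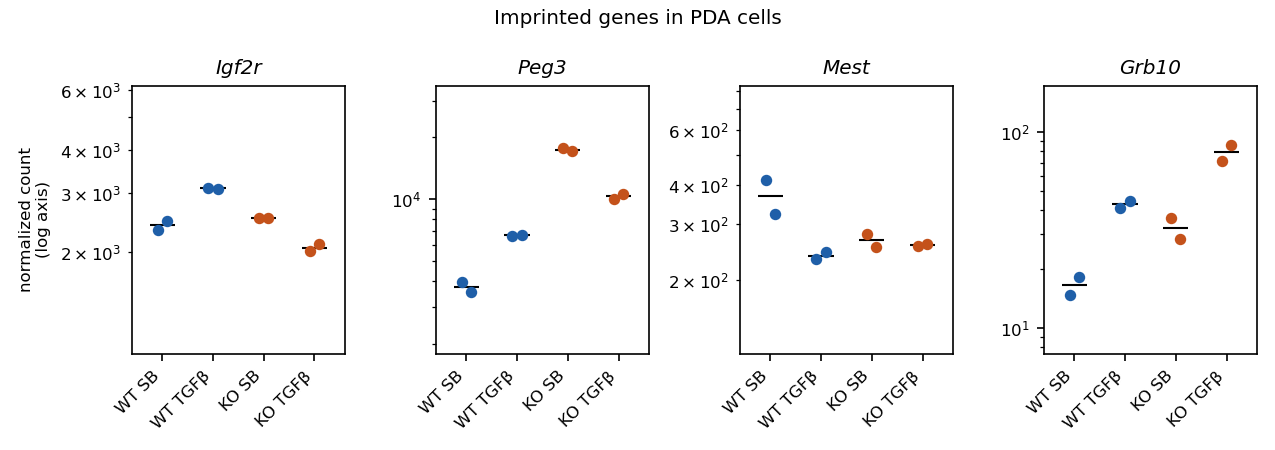
Normalized read counts (log axis, own range per gene) of the 4 tested imprinted genes in the 8 PDA libraries; points are libraries, bars the mean of 2, blue WT and orange labelled KO, under SB505124 (SB) or TGFβ. Peg3 lies at 17670 and 17075 in KO under SB505124 and at 3972 and 3570 in WT.

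Under TGFβ in WT, 3 of the 4 tested genes rose and 1 fell, where 19.4% of all tested genes rose and 17.6% fell, and 1 rose and 2 fell in KO, against 20.6% and 18.0%. The TGFβ change was lower in KO for 2 and higher for none, against 12.1% and 9.71% of all genes. Against WT, KO was higher for 2 and lower for 1 under SB505124, against 28.9% and 27.2%, and above for 2 and below for 1 under TGFβ, against 21.2% and 19%. A set of 4 genes is too small to read against these shares. Among marker lists, the 3 endothelial markers with a row summed to 38.5 to 56.6 in WT and 928 to 1364 in KO libraries. Of the 3, 1 was at 10 or more in each group, and Tek was at 0 in both WT SB505124 libraries. Primitive and visceral endoderm markers summed to 6664 to 6692 and 5102 to 5170 in WT and to 14406 to 15285 and 8696 to 8992 in KO, under SB505124 and TGFβ in this order. This sum was higher in KO, as Peg3 was, but in WT it fell under TGFβ, where Peg3 rose. Pluripotency, trophoblast, ductal and acinar sums were also higher in KO under both agents, and the fibroblast sum was lower. The part of these markers was not tested.

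Further imprinted genes differed between the PDA labels. Of 14 tested genes listed as paternally expressed, 6 were higher and 4 lower in KO under SB505124 (28.9% and 27.2% of all genes), and 5 were higher and 5 lower under TGFβ (21.2% and 19%). Ndn, of the Prader-Willi region, measured 33.7 to 40.4 in WT under SB505124 and 38.5 to 44.4 under TGFβ, and no read in any KO library. With the detection limit of 3 reads over the KO group, Ndn was at least 19.6-fold higher in WT under SB505124 and at least 30.5-fold higher under TGFβ (limma adjusted p = 1.49e-05 and 1.42e-05). Impact was lower in KO (-2.13 ± 0.16 under SB505124 and -2.69 ± 0.16 under TGFβ), and the zinc finger gene Plagl1 higher (2.72 ± 0.15 and 1.58 ± 0.15). In WT under TGFβ 4 of the 14 rose and 2 fell (19.4% and 17.6% of all genes), and in KO 2 rose and 4 fell (20.6% and 18.0%). Of 8 tested genes listed as maternally expressed, none rose and 2 fell under TGFβ in WT and none rose and 3 fell in KO, beside the same shares of all genes. Under SB505124, 4 were higher and 1 lower in KO (28.9% and 27.2% of all genes), and Slc22a18, a transporter gene, was above under both agents (1.26 ± 0.15 and 1.49 ± 0.15).

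Of 18 tested genes of imprint maintenance and DNA methylation, the TET genes included, 9 rose and 1 fell under TGFβ in WT, against 19.4% and 17.6% of all genes, and 6 rose and 2 fell in KO, against 20.6% and 18.0%. Tet3 was among those that rose in WT (0.70 ± 0.10) and Tet2 among those that fell in KO (-0.89 ± 0.09). Zfp57 was the gene that fell in WT, from 3638 to 4082 down to 1443 to 1480 (-1.40 ± 0.09, limma adjusted p = 2.92e-05), and in KO from 6133 to 6203 down to 1348 to 1524 (-2.10 ± 0.09, limma adjusted p = 4.09e-06). Of 14 tested IGF pathway genes, 3 were higher and 5 lower under TGFβ in WT (19.4% and 17.6% of all genes) and 5 higher and 3 lower in KO (20.6% and 18.0%). Igfbp5 was at or below 2.46 in WT and measured 106 to 137 in KO under SB505124 and 473 to 539 under TGFβ (5.70 ± 0.28 and 7.33 ± 0.28 against WT). Igfbp4 was lower in KO (-1.70 ± 0.10 and -1.06 ± 0.10). Of 11 tested NOTCH pathway genes, 6 rose and none fell under TGFβ in WT, and 4 rose and 1 fell in KO, beside 19.4% and 17.6% of all genes in WT and 20.6% and 18.0% in KO. The ligand gene Jag1 rose in WT (2.14 ± 0.07, limma adjusted p = 1.70e-06), as did Dll4 (3.19 ± 0.18, limma adjusted p = 1.76e-05). Dll4, another ligand gene, was lower in KO under SB505124 (-3.33 ± 0.18) and TGFβ (-3.67 ± 0.18). In all, 3 of the 11 were higher and 6 lower in KO under SB505124 (28.9% and 27.2% of all genes). Under TGFβ, 1 was higher and 8 lower (21.2% and 19%).

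By likeness over the 8 PDA libraries, among 11213 genes with a mean of at least 50, Peg3 was closest to Eif2ak3 (r = 0.999), Secisbp2l (0.997) and Lrrc8d (0.997). Eif2ak3 encodes a kinase of the unfolded protein response. Igf2r was closest to Epg5 (0.981) and R3hdm2 (0.978), and Mest to Gnal (0.975), Zfp53 (0.971) and Yars2 (0.968). None of these genes was among the closest of the same gene in the EB libraries.

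In organoids, with 1 library per condition, the mean over the 4 libraries reached 10 for 7 of the 10 genes. There is no replicate check, so intervals cover counting error only and no p is given. Igf2r measured 7408 and 7528 without dox under SB505124 and TGFβ, and 7000 and 6781 with dox. It had the narrowest range of log2 ratios, from -0.15 to 0.02. Grb10 measured 807 and 657 without dox and 1794 and 1403 with dox, so that both libraries with dox were above both without. Its ratio for dox was 2.22 under SB505124 (95% counting interval 2.06 to 2.40) and 2.14 under TGFβ (1.94 to 2.36). Mest measured 53.6 and 39.9 without dox and 108 and 83.7 with dox, a ratio of 2.01 (1.49 to 2.76) and 2.10 (1.40 to 3.19). On the log2(value + 1) scale the Mest ratio was 1.00 under SB505124, just short of the 2-fold limit, and 1.05 under TGFβ, just past it. Peg3 measured 90.7 and 98.8 without dox and 111 and 74.7 with dox, with no ratio past 2-fold.

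The chromosome 12 genes were highest in the library without dox under SB505124. Meg3 measured 92.4 there, from 107 reads, and 7.35 in the other library without dox, against 3.72 and 6.79 with dox (SB505124, then TGFβ). Its ratio was 0.0796 (0.0312 to 0.170) for TGFβ without dox and 0.0402 (0.0128 to 0.0969) for dox under SB505124. Rian measured 38.9 there and 15.8, 7.44 and 17.0 in the others in the same order, with a ratio of 0.405 (0.210 to 0.741) for TGFβ without dox and 0.191 (0.0860 to 0.385) for dox under SB505124. Dlk1 had 37 reads there (a value of 32.0), none in the next 2 libraries and 1 in the fourth. With the limit of 3 reads, Dlk1 was at least 10.1-fold higher there than without dox under TGFβ and at least 14.3-fold higher than with dox under SB505124. All 3 genes of this cluster thus stand out in 1 library, and Rian under dox was past 2-fold for TGFβ against SB505124 from 15 and 10 reads (2.28, interval 0.959 to 5.68). In that same library 4 endothelial markers summed to 28.5 against 2.98 to 6.30 in the other 3, with Emcn at 0, 6 fibroblast markers with a row to 45.8 against 5.95 to 34.0, with Thy1 at 0, and 4 leukocyte markers with a row to 829 against 229 to 644, with Ptprc at 0. Their part was not tested.

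Igf2 measured 28.5 and 21.0 without dox and 12.6 and 9.05 with dox, from 8 to 33 reads, a ratio of 0.444 (0.232 to 0.820) under SB505124 and 0.431 (0.164 to 1.02) under TGFβ. H19 and Peg10 had at most 7 reads in any organoid library and are not compared. Of the 7 genes, none was past 2-fold up and 2 down for TGFβ without dox, where 3.56% of all 13443 genes were up and 2.85% down. With dox, 1 was up and none down for TGFβ, against 3.52% and 3.24%. For dox under SB505124, 1 was up and 3 down, against 7.93% and 9.57%, and for dox under TGFβ 2 were up and 1 down, against 7.84% and 9.60%. The ratios of Meg3, Rian and Igf2 rest on few reads.

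**Figure D5:**
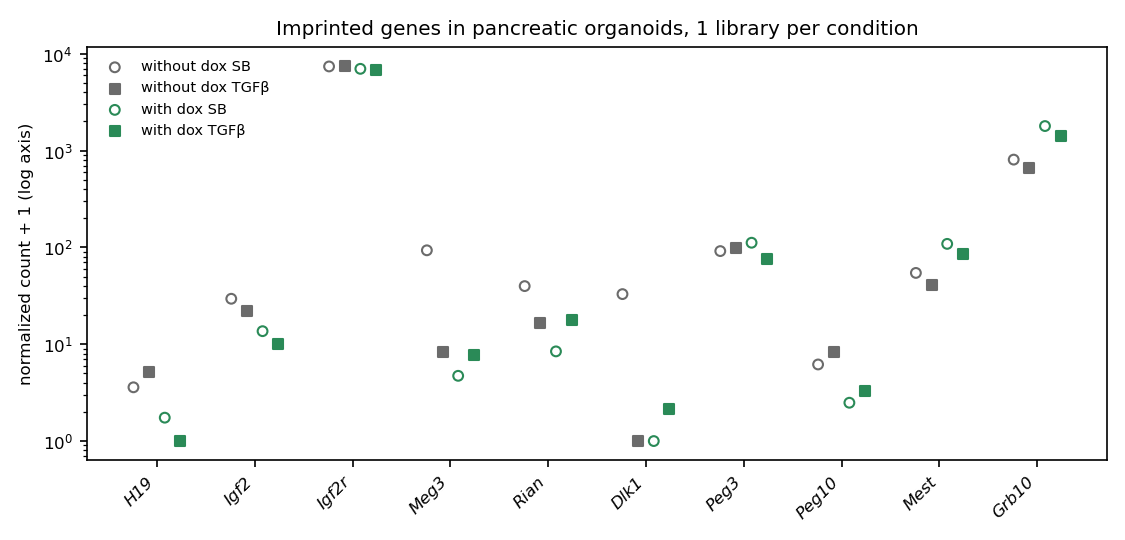
Normalized count + 1 (log axis) of the 10 imprinted genes in the 4 organoid libraries, 1 per condition; circles SB505124 (SB), squares TGFβ, grey without and green with dox, and levels of different genes are not scaled for transcript length. Meg3, Rian and Dlk1 lie at 92.4, 38.9 and 32.0 in the library without dox under SB505124 and at most at 17.0 in the others.

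The 3 tables were normalized separately, so levels were not tested between them. Within these limits, Igf2 ran from 56.2 to 23968 in EB libraries, was at 9.05 to 28.5 in organoids and had at most 1 read in PDA cells. Peg3 was at least 895 in every EB library and at least 3570 in every PDA library, and between 74.7 and 111 in organoids. Grb10 ran in the opposite order of the last 2 systems, from 657 to 1794 in organoids and from 14.7 to 86.4 in PDA cells. Igf2r had a value of at least 2013 in all 20 libraries.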

How the data were processed

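RNA-seq values for the 10 imprinted genes came from 3 tables, 1 per culture system, of 8 EB, 8 PDA and 4 organoid libraries. The deposited signal is a normalized read count per gene and library. Listed in the submitters' processing notes, with no role or order, are the mm10 build, HOMER, DESeq2 3.4, HTSeq 0.6.1p1, Bowtie2 and FastQC 0.11.5. In each library 100% of the deposited values were whole reads divided by 1 factor (tolerance 0.001), which gave the depth, the counting intervals and the reads for edgeR and DESeq2. Per the labels' protocols, total RNA was made into libraries with a TruSeq kit (v2), which does not mark strand.

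Genes that reached a value of 10 in 2 or more of 8 libraries were tested (15227 EB and 13226 PDA genes), as log2(value + 1), with limma 3.58.1 (R 4.3.3, trend) over 4 groups of 2. P-values were two-sided, Benjamini-Hochberg adjusted over all tested genes, and called under 0.05. Organoid genes were kept where their mean reached 10 (13443 genes), and a ratio past 2-fold was counted with no test. Alternatives were a pseudocount of 8, no filter, rescaling to the same total, quantile normalization, edgeR 4.0.16, DESeq2 1.42.0, the replicate number as a block, and leaving out each library. The fit was tested on simulated counts. The 10 genes and the gene lists were chosen with earlier results of these data known. Genes named from a list are up to 4 per comparison with the smallest adjusted p among those called, and up to 3 by likeness per gene. Some genes that this rule took are left out of the text. Positions and start regions came from RefSeq (GRCm38.p6). Transcript lengths were not used, so levels are not compared between genes. Reads of Igf2, Igf2r, Meg3, Rian, Peg3, Mest and Grb10 cannot be told apart from those of the genes that overlap them.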

Additional observations from a re-analysis of the deposited data

Results flagged for a closer look

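In the EB libraries 55.7% of all tested genes had a called interaction of day and label by limma. By this term the change from day 0 to day 4 differed between the WT and KO labels for 9 of the 10 imprinted genes. As the log2 change in KO less that in WT, this was -8.40 for Igf2, -3.98 for Peg3, -3.20 for H19, -3.19 for Peg10, -2.19 for Dlk1, -2.11 for Mest, -1.11 for Grb10, -0.75 for Igf2r and -0.45 for Rian. In the PDA libraries the TGFβ change differed for Peg3 (-1.58) and Igf2r (-0.65), which rose in WT and fell in KO. Such a difference was called for 21.8% of all tested PDA genes.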

How the results depend on the processing

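Over 70 results for single genes and 1050 alternative fits of them, 978 kept their direction and side of the threshold, 38 lost and 14 gained a call, and 20 changed sign. The cause of these changes was not tested. For 46 of the 70 results nothing changed.

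Signs changed only for differences that limma had not called, of which the Meg3 interaction in EB libraries (0.44) was the largest. The KO change of Rian (-0.08) was 0.048 under quantile normalization and ran from -0.23 to 0.076 with 1 library left out, and that of Dlk1 (0.18) was -0.063 under quantile normalization. Rian in KO against WT at day 4 (-0.00) was 0.0038 by edgeR and 0.00092 by DESeq2, and -0.12 to 0.12 with 1 library left out. With 1 library left out, the Meg3 interaction ran from -0.066 to 0.94, Meg3 in KO against WT at day 0 from -0.34 to 0.67 and Igf2r at day 4 from -0.28 to 0.012. Both Meg3 ranges are set by KO day 0 replicates 1 and 2. In PDA cells the TGFβ change of Mest in KO was 0.062 after rescaling and -0.12 to 0.020 with 1 library left out. The Grb10 interaction was 0.056 with a pseudocount of 8, 0.0035 after rescaling and -0.23 to 0.11 with 1 library left out. Igf2r in KO against WT under SB505124 was -0.082 after rescaling and -0.031 under quantile normalization.

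With 1 library left out, the number of the 4 PDA genes called for TGFβ in WT ran from 2 to 4 (2 without either WT TGFβ library), and for KO against WT under SB505124 from 1 to 3 (1 without KO SB505124 replicate 1). In organoids, a pseudocount of 8 gave 1 gene past 2-fold for TGFβ without dox, 0 with dox and 1 for dox under TGFβ. Without the filter the numbers were 2 for TGFβ with dox, 7 for dox under SB505124 and 6 for dox under TGFβ. The genes added by dropping the filter were H19, Peg10 and Dlk1. H19 and Peg10 had at most 7 reads in any organoid library, and Dlk1 had 37 in 1 library and at most 1 elsewhere. These added counts thus rest mostly on values near the detection limit. No share over all genes was taken under either setting.

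Same-numbered samples did not deviate together in EB libraries (correlations -0.03 to 0.09). In PDA libraries the correlations ran from -0.51 to 0.14. The -0.51 was between WT under SB505124 and KO under TGFβ, whose replicates deviated together with the numbers crossed. The chi-square of read counts between replicates was 48.5 and 39.2 per gene in these groups. It was 1.94 in WT under TGFβ and 2.95 in KO under SB505124. The numbers therefore do not pair the samples. The spread shared by WT SB505124 and KO TGFβ libraries was not modelled, and its source was not tested. With the replicate block the calls for the PDA interaction over all genes fell from 2886 to 1596, and among the 10 genes only Grb10 in KO against WT at day 4 changed its call. Rescaling moved the split of all genes called higher and lower from 4236 and 4319 to 3426 and 5333 for KO against WT at day 4, and from 3828 and 3600 to 2975 and 4901 under SB505124. It moved the split from 2808 and 2508 to 2360 and 3306 under TGFβ, from 2731 and 2382 to 3830 and 1802 for TGFβ in KO, and from 1284 and 1602 to 1869 and 1388 for the PDA interaction. The median of all genes then shifted to -0.11, -0.16, -0.10 and 0.13 for the first 4 of these. Without WT TGFβ replicate 1 or 2, the calls over all PDA genes fell from 4887 to 2244 and 2277 for TGFβ in WT, from 5316 to 3169 and 3236 for KO against WT under TGFβ, and from 2886 to 781 and 842 for the interaction. Without KO SB505124 replicate 1 or 2, they fell from 5113 to 2944 and 3130 for TGFβ in KO and from 2886 to 968 and 1188 for the interaction.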
